A study of Caenorhabditis elegans with 12 samples.

Results

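Hedgehog-related and patched-related genes of *Caenorhabditis elegans* were examined across all 4 groups of the study. The members are the genes whose symbol in the count table begins with *wrt*, *grd*, *grl*, *hog*, *qua*, *ptr* or *ptc*. There are 84 of them among 46934 genes, namely 10 warthog (*wrt*), 16 groundhog (*grd*) and 31 ground-like (*grl*) genes, *hog-1*, *qua-1*, 23 patched-related (*ptr*) genes, and the patched genes *ptc-1* and *ptc-3*. The rule used symbols alone and no measured value. It left out *ptr-25*, which the table lists as F43D9.1, and the pseudogene *ptc-2*, which has no symbol there, and neither of these passed the test in any comparison.

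Worms have no canonical Hedgehog ligand and no clear Smoothened receptor, yet they carry a large set of secreted proteins related to Hedgehog and many membrane proteins related to Patched. The *wrt*, *grd*, *hog* and *qua* proteins join an amino-terminal domain of their own to a Hedgehog-like autoprocessing domain, although some members have lost it, and the *grl* proteins consist mainly of the ground-like domain. Many of these genes act in the epidermis and its apical matrix, above all during molting, while Patched-type proteins have a sterol-sensing domain and are thought to move lipids or to bind secreted ligands.

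RNA came from whole animals on day 1 of adulthood, grown on *E. coli* OP50. N2, the wild type, and mutants carrying *hsf-1*(*sy441*) were either left untreated at 20 °C or exposed to 35 °C for 30 min and given 1 h at 20 °C before isolation, with 3 samples per group. The gene *hsf-1* encodes the main transcription factor of the heat shock response, and *sy441* lowers its activity without removing it, through an early stop that truncates the carboxy-terminal end. The titles call the samples biological replicates without saying whether cultures were separate, so the p-values reflect sample-to-sample spread only, possibly of technical origin.

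Library totals ranged from 68188334 to 109248499 counts. All values below are CPM, counts per 1000000 of the scaled library total. Transcripts of *hsp-16.2*, a small heat shock protein gene, were at 0.904 to 8.23 CPM in untreated and 95.9 to 943 CPM in heat-shocked libraries, whereas *hsf-1*, whose transcript the allele need not remove, lay between 67.6 and 154 CPM. Several libraries stood apart. Ribosomal RNA made up 7.41% of counts in *sy441* control replicate 1, 7.34% in *sy441* heat shock replicate 1 and 4.21% in N2 heat shock replicate 1, against 1.01 to 2.41% in the others. N2 control replicate 3 and N2 heat shock replicate 1 are called the shifted N2 pair below, and replicate 1 of both *sy441* groups the rRNA-rich mutant pair.

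These libraries also stood apart for the members. Of the 77 members with enough counts for testing, 55 were higher in N2 control replicate 3 than in both other N2 controls, which was so for 48.6% of all tested genes. In *sy441* heat shock replicate 1 this held for 57 of 77 members, against 38.5% of all genes, and in *sy441* control replicate 1 for 49, against 42.9%. For N2 heat shock replicate 1 the count was 43 of 77, against 42.2% of all genes. In *sy441* heat shock replicate 2 the opposite was seen, with 58 members below both other libraries, as were 39.3% of all tested genes. The elevation in N2 control replicate 3 was seen for 41 of 52 Hedgehog-related genes and 14 of 25 patched-type genes, and that in *sy441* control replicate 1 for 28 and 21. In whole-animal RNA, fewer cells of a type and less RNA per cell cannot be told apart.

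**Figure D1:**
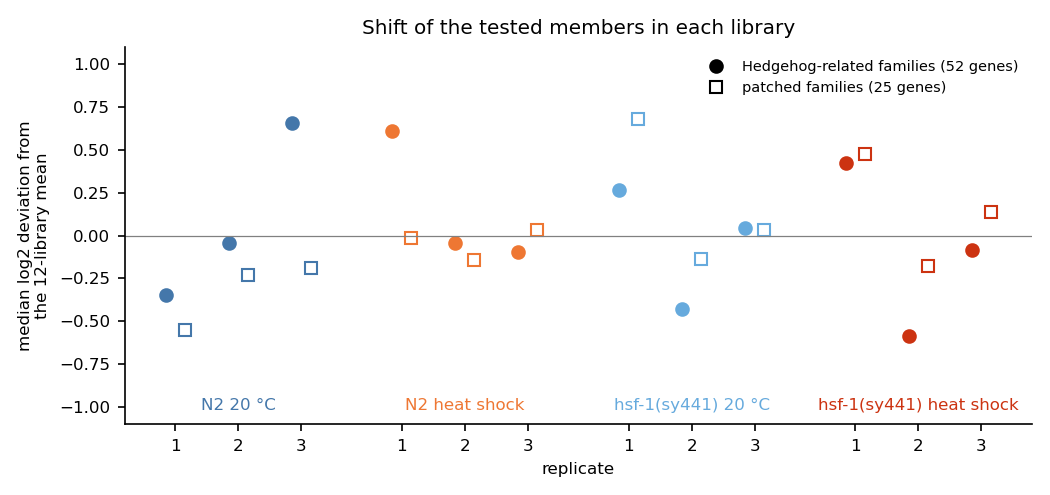
Shift of the tested members in each of the 12 libraries. The vertical axis gives the median, over genes, of the log2 deviation from the gene's own mean over all libraries, with filled circles for the Hedgehog-related families (52 genes) and open squares for the patched families (25 genes). The circles of N2 control replicate 3 and N2 heat shock replicate 1 lie at 0.65 and 0.61, and the square of *sy441* control replicate 1 at 0.68.

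Most members were weakly represented in adult RNA. Per kb of annotated exon, the median of the tested members was 0.931 CPM, while that of all tested genes was 4.12 CPM. *ptc-1*, needed for cytokinesis in the germ line, was the most abundant at 126 CPM per kb. *ptr-2* followed at 97.1, and the groundhog genes *grd-5* and *grd-3* stood at 96.9 and 80.4 CPM per kb. The next member, *grl-4*, was at 17.7 CPM per kb.

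*ptc-1* and *ptr-2* together supplied 48.9 to 80.7% of all member CPM in a library. In CPM, *ptc-1* ranged from 371 to 846 in N2 and from 500.3 to 631 in *sy441* at 20 °C, and from 519 to 902 in N2 and 490 to 762 in *sy441* after heat shock. *ptr-2* had group means of 285 ± 160 (SD, n = 3) in N2 and 254 ± 13.4 in *sy441* controls, and of 307 ± 103 and 284 ± 69.6 after heat shock. The groups overlapped for both genes. For *ptc-1* and *ptr-2*, N2 control replicate 3 was the lowest of all libraries, the reverse of its position for most Hedgehog-related members. The summed CPM of the germ line list was also lowest there, at 3958, against 6015 to 10654 in the other libraries, and its part in these values was not tested.

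Among warthog genes the highest levels per kb were those of *wrt-5* (13.9 CPM), *wrt-10* (11.9 CPM) and *wrt-1* (5.58 CPM). *grd-10* was next among groundhog genes at 16.4 CPM per kb. *grl-15* and *grl-7* came after *grl-4* at 5.80 and 5.67 CPM per kb. *ptr-24* and *ptr-21* came after *ptr-2* at 7.13 and 6.80, *ptc-3*, an essential gene of growth and molting, was at 4.37, and *qua-1*, a molting gene, and *hog-1* were at 1.57 and 1.42 CPM per kb. Between neighbours in this order, such as *ptr-2* and *grd-5* or *grl-15* and *grl-7*, the levels were within the spread of the libraries.

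The 7 untested members were *grd-8* with 7 counts over all libraries, *grl-19* with 57, *grl-23* with 28, *grl-24* with 60, *grl-28* with 31, *grl-30* with 13 and *grl-29* with 0. All 25 patched-type genes passed the filter on low counts, as did 52 of 59 Hedgehog-related genes. A gene that is high in a single group may have passed for that reason.

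**Figure D2:**
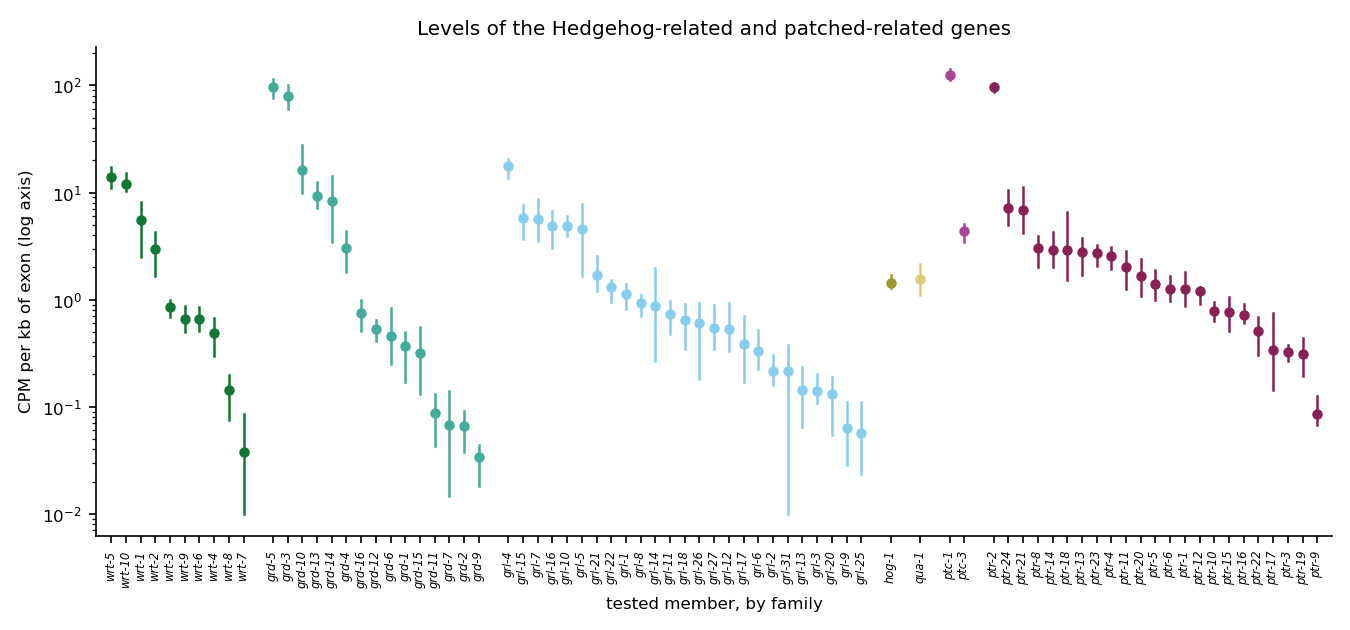
Level of each tested member by family, as CPM per kb of exon on a log axis. Points are means over all 12 libraries and lines span the lowest to the highest of the 4 group means. Group means below 0.01, such as those of *grl-31* and *wrt-7* in groups with no counts, are drawn at 0.01. *ptc-1*, *ptr-2*, *grd-5* and *grd-3* lie between 80.4 and 126, above all others.

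On the genome (WBcel235), chromosome V carried 32 of the 84 members, among them 19 *grl* genes, which is 38.1% of members against 24.99% of the protein-coding genes in the table. Some members adjoined each other. *wrt-1* and *wrt-10* lie 15 bp apart on opposite strands of chromosome II, and *grd-13*, *grd-3* and *grd-10* follow each other on chromosome IV. *grd-14* and *grd-4* are neighbours on the X chromosome, 184 bp apart.

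The first question was how the mutants differed from wild type, and the averaged comparison of 6 *sy441* with 6 N2 libraries, which uses both treatments, gave the most calls. By edgeR's quasi-likelihood test at an adjusted p under 0.05, 7 members were higher and 3 lower in *sy441*. Over all 17946 tested genes the shares were 15.2% and 5.34%. The count of 7 of 77 is below its background share, while 3 of 77 is near its share. Under other settings, given below, the lower count was not always below the share. All 5 patched-type genes that passed were higher, namely *ptr-11*, *ptr-13*, *ptr-14*, *ptr-15* and *ptr-21*. Of the Hedgehog-related genes *grd-3* and *grd-14* were higher, and *grl-5*, *wrt-1* and *wrt-2* were lower. With RLE factors in place of TMM the split was 6 higher and 5 lower (13.9% and 6.7% of all genes), and with DESeq2 10 higher and 8 lower (16.4% and 9.01%).

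The ground-like gene *grl-5* (WBGene00001714, chromosome V, 4412748 to 4414663) had the lowest fold change among the called members. Its CPM values in N2 were 3.08, 4.93 and 9.09 at 20 °C and 10.5, 4.84 and 5.40 after heat shock. In *sy441* they were 2.89, 1.31 and 2.05 at 20 °C and 2.15, 0.924 and 1.33 after heat shock. Every mutant library was below every N2 library. The averaged log2 fold change was -1.84 (SE 0.34, edgeR adjusted p = 0.00334), and *grl-5* was called under every alternative tried for this comparison.

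The warthog genes *wrt-1* (chromosome II, 7530996 to 7533246) and *wrt-2* (chromosome X, 3092395 to 3094349) were lower as well. *wrt-1* had 7.08, 10.7 and 25.1 CPM in N2 controls, 25.4, 9.12 and 7.59 in heat-shocked N2, 9.51, 2.06 and 7.22 in *sy441* controls and 6.99, 1.91 and 4.33 in heat-shocked mutants. The high N2 values were those of the libraries that stood apart, and the genotypes overlapped. The log2 fold change of *wrt-1* was -1.43 (SE 0.46, edgeR adjusted p = 0.0449), and without the shifted N2 pair it was -0.71 (adjusted p = 0.241). The call was lost in 4 of 12 fits without a library (-1.83 to -1.09).

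*wrt-2* was at 4.56, 7.42 and 4.82 CPM in N2 controls and 6.58, 6.89 and 6.14 in heat-shocked N2, compared with 4.99, 1.75 and 4.05 in *sy441* controls and 3.99, 1.53 and 2.19 in heat-shocked mutants. A single mutant control, replicate 1, reached the N2 range. Its log2 fold change was -0.99 (SE 0.30, edgeR adjusted p = 0.0323), lost in 3 of 12 fits without a library (-1.39 to -0.83). The gene shares 43 bp of exon with *pccb-1* on the opposite strand, and without a stated strand setting reads from the shared stretch cannot be told apart.

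No other warthog gene was called. Of the 10 *wrt* genes, 8 had an averaged fold change below 0 (median -0.45), as did all 10 after heat shock (median -0.87), where 53.3% of all tested genes lay above 0. The count of 10 was not taken without N2 heat shock replicate 1, of the shifted N2 pair. For *wrt-3* that library had 3.36 CPM, against 1.76 and 2.07 in other heat-shocked N2 and 1.81 to 2.42 in heat-shocked mutants. For *wrt-10* it had 19.4, against 11.8 and 8.28 in N2 and 5.05 to 14.97 in mutants. Every heat-shocked mutant was below every heat-shocked N2 library for *wrt-1*, *wrt-2*, *wrt-4* and *wrt-5*. Such a gap was present for 9 of 77 members and for 11.1% of all tested genes, so it is common. *wrt-5*, the most abundant warthog gene, had an averaged log2 fold change of 0.02 (SE 0.15). *wrt-10*, adjoining *wrt-1*, had -0.36 (SE 0.31) and ranged from 5.05 to 25.2 CPM. *wrt-7* had no counts in heat-shocked mutants and 15 over the heat-shocked N2 libraries, namely 11, 0 and 4. On these pooled counts it was at least 4.08-fold lower, taking 3 counts per group as the floor. That bound leaves out the spread between libraries, and the gene was not called.

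Of the genes higher in the mutants, *ptr-13* (WBGene00004227, chromosome II, 11156589 to 11162481) held most firmly. Its CPM values were 5.90, 4.99 and 6.63 in N2 and 15.8, 11.7 and 10.6 in *sy441* at 20 °C, then 4.49, 6.29 and 8.88 in N2 and 14.5, 9.89 and 13.5 in *sy441* after heat shock. No mutant library fell into the N2 range in either treatment. The averaged log2 fold change was 1.03 (SE 0.20, edgeR adjusted p = 0.00459) and stayed called under every alternative tried.

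The abundant groundhog gene *grd-3* (chromosome IV, 3439655 to 3440453) showed a smaller but even difference. It had 44.4, 53.2 and 48.3 CPM in N2 controls and 70.1, 71.4 and 67.0 in *sy441* controls. After heat shock the values were 29.4, 46.9 and 48.7 in N2 and 63.6, 58.9 and 65.1 in *sy441*. Mutant and N2 libraries did not overlap. Its log2 fold change was 0.55 (SE 0.14, edgeR adjusted p = 0.0168), and 8 of the 12 fits that left out a library did not call it (0.27 to 0.60).

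Besides *grl-5*, *ptr-13* and *grd-3*, no member separated all 6 libraries of each genotype. Such a gap was present in the higher direction for 2 of 77 members and 8.34% of all tested genes, and in the lower direction for 1 member and 3.33%. The edgeR calls covered 15.2% and 5.34% of all genes. Both member counts are below the shares of separated genes, but with 1 member the lower direction says little. The median level per kb was 0.931 CPM for the tested members and 4.12 CPM for all tested genes. The part of this low level in the counts was not tested.

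*grd-14* (chromosome X, 8500021 to 8501037) was higher in *sy441* and also lower after heat shock. N2 controls had 3.43, 6.01 and 6.08 CPM and *sy441* controls 8.33, 9.41 and 8.07. After heat shock N2 had 1.93, 1.34 and 2.97 and *sy441* 6.26, 2.72 and 3.40. Mutants were all above N2 at 20 °C and overlapped by a single library after heat shock. The averaged genotype fold change was 0.86 on the log2 scale (SE 0.27, edgeR adjusted p = 0.0391), a call lost in 10 of 12 fits without a library (0.49 to 0.93) and without the rRNA-rich mutant pair (0.59, adjusted p = 0.201).

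The calls of the 4 other patched-related genes held less firmly than that of *ptr-13*. *ptr-14* had 5.19, 5.34 and 7.28 CPM in N2 controls, 5.78, 4.95 and 7.72 in heat-shocked N2, 20.6, 7.18 and 10.04 in *sy441* controls and 12.6, 7.21 and 10.1 in heat-shocked mutants. *ptr-11* had 2.88 to 4.28 CPM in N2 and 4.82 to 9.65 in *sy441* at 20 °C, and 3.92 to 4.88 and 4.91 to 11.9 after heat shock. *ptr-21* had 6.26 to 18.9 CPM in N2 and 22.5 to 63.7 in *sy441* at 20 °C, and 12.8 to 19.8 and 19.1 to 33.7 after heat shock. For all of *ptr-11*, *ptr-14* and *ptr-21*, replicate 1 was the highest mutant library in both treatments.

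Their averaged log2 fold changes were 0.87 for *ptr-11*, 0.89 for *ptr-14* and 1.04 for *ptr-21*, with edgeR adjusted p of 0.0323, 0.0299 and 0.0345. Without the rRNA-rich mutant pair they were 0.41, 0.45 and 0.54, with adjusted p of 0.245, 0.228 and 0.243. The calls were lost in 9, 8 and 7 of the 12 fits that left out a library. *ptr-15*, which overlaps *mec-1* on the other strand by 30 bp, had group means of 1.33 ± 0.723 (SD, n = 3) and 1.34 ± 0.407 CPM in N2 and 2.63 ± 0.734 and 2.77 ± 1.11 CPM in *sy441*. Its log2 fold change was 1.01 (SE 0.32, edgeR adjusted p = 0.0422), lost in 11 of the 12 fits without a library (0.73 to 1.27).

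**Figure D3:**
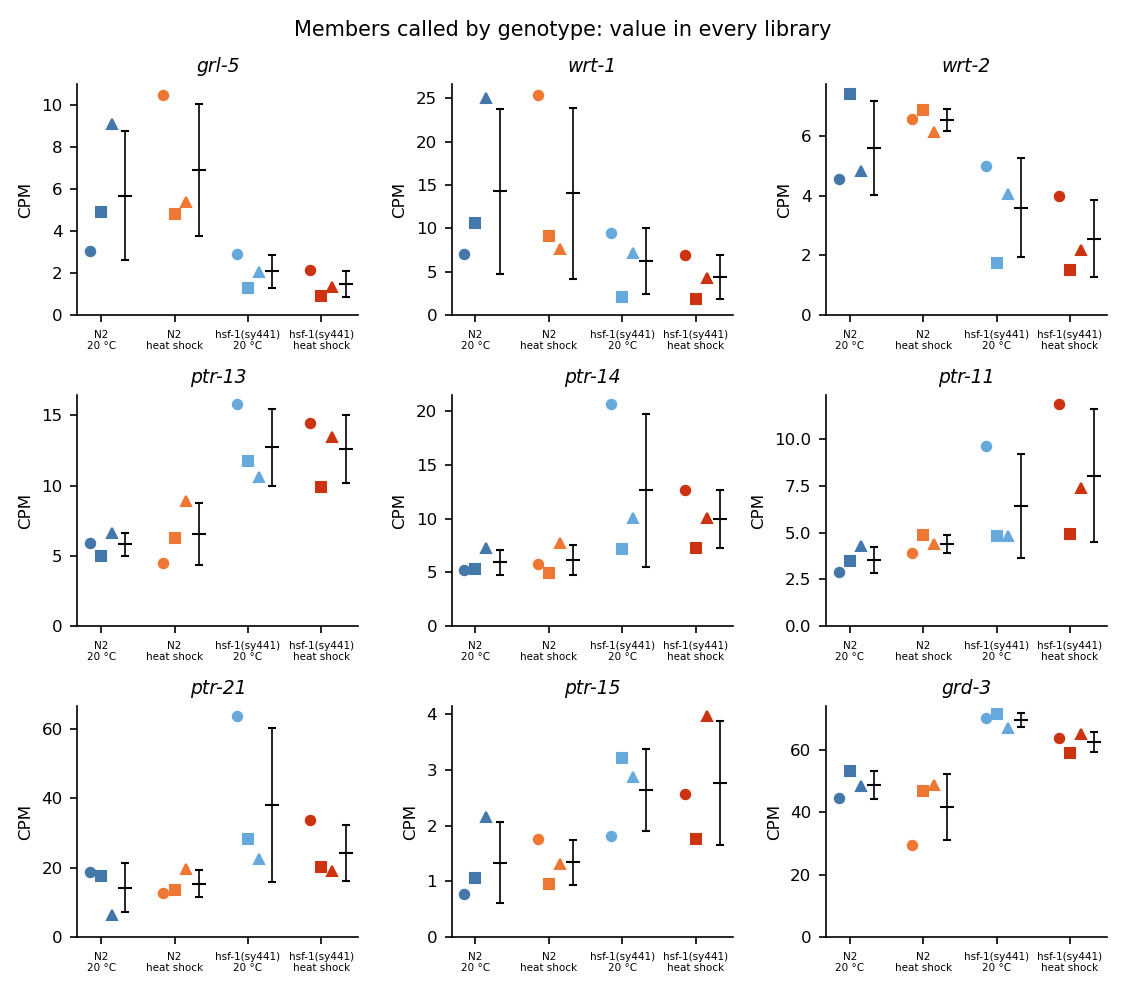
CPM in every library for 9 members called between the genotypes. Circles, squares and triangles are replicates 1, 2 and 3, and the black marks beside them are group means with SD (n = 3). For *grl-5*, *ptr-13* and *grd-3* no N2 library reaches a *sy441* library, while for *ptr-14*, *ptr-11* and *ptr-21* replicate 1 is the highest mutant library.

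Over all tested members the median log2 fold change between genotypes was 0.07 with both treatments averaged, 0.18 at 20 °C and 0.06 after heat shock, against 0.09, 0.13 and 0.04 for all tested genes. In the averaged comparison 17 of 25 patched-type genes were above 0 (median 0.38) and 25 of 52 Hedgehog-related genes (median -0.11), compared with 55.9% of all tested genes (median 0.09). The medians moved with the libraries included, as did that of all tested genes. With each library left out, the patched-type count ran from 13 (median 0.06, without *sy441* heat shock replicate 1) to 18 of 25. In the fit with 13, the median of all tested genes was -0.10. Without the rRNA-rich mutant pair, the medians were 0.09 for patched-type and -0.57 for Hedgehog-related genes, against -0.03 for all tested genes. That fit called 1 member higher and 6 lower, compared with 7.19% and 2.46% of all genes. Without the shifted N2 pair, the medians were 0.44 and 0.37, against 0.23 for all tested genes. There 13 members were called higher and 4 lower, compared with 18.8% and 10.2%.

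Markers of other tissues moved with genotype too. Of 29 tested major sperm protein genes all were higher in the averaged comparison by edgeR, and the summed CPM of this list was 1.67 to 23.5 in N2 and 151 to 349 in *sy441* controls, then 7.22 to 33.8 and 113 to 258 after heat shock. Of 11 intestine markers 6 were higher and none was lower, with sums of 7852 to 23146 CPM in N2 and 26827 to 63814 in *sy441* controls and 12196 to 27337 and 26000 to 44804 after heat shock. Over all tested genes, 15.2% were higher and 5.34% lower by edgeR in the averaged comparison. No gene of either list was at 0 in every library. Their part in the members' differences was not tested.

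Markers of the epidermis, a main tissue of the Hedgehog-related genes, summed to 311 to 533 CPM in N2 and 513 to 651 in *sy441* controls, and to 355 to 486 and 451 to 583 after heat shock, with 1 of 15 higher (*col-19*) and 2 lower (*rol-6* and *dpy-4*) in the averaged comparison. The glia list had 1 of 9 tested genes higher (*pros-1*), the early embryo list 1 of 11 higher and 2 lower, the list of late embryo and larval molting 1 of 13 higher, and the germ line list none of 10. These counts stand beside 15.2% of all tested genes higher and 5.34% lower in the averaged comparison. The part of these tissues in the members' values was not tested.

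At 20 °C alone, 1 member was higher and 0 were lower in the mutants, with backgrounds of 6.24% and 0.591%. It was *ptr-13*, with a log2 fold change of 1.12 (SE 0.29, edgeR adjusted p = 0.0367). The call was lost in 11 of 12 fits that left out a library (0.75 to 1.25), as it was with RLE factors (1.02, adjusted p = 0.0509) and the omission of the rRNA-rich mutant pair (0.83, adjusted p = 0.210). The next by p were *ptr-20* at 1.14 (SE 0.36, adjusted p = 0.0711) and *ptr-5* at 0.92 (SE 0.29, adjusted p = 0.0739).

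*ptr-20* had 2.13, 2.32 and 4.39 CPM in N2 controls and 8.75, 5.67 and 5.06 in *sy441* controls. *ptr-5* had 2.68, 3.98 and 3.72 in N2 and 8.42, 5.77 and 5.44 in *sy441* controls. Mutant controls were above the N2 controls for both genes, as they were for 14 of 77 members and 20.9% of all tested genes. In all, 19 of 25 patched-type and 24 of 52 Hedgehog-related genes were above 0 in this comparison, where 57.8% of all tested genes were. DESeq2 gave a patched-type median of 0.44 in place of 0.53. Its median of all genes was 0 in place of 0.13, but over a larger set that was not filtered for low counts. With edgeR and no filter the median of all genes was 0 as well, and the patched-type median 0.50. The patched-type count fell to 13 of 25 (median 0.10) without *sy441* control replicate 1, where the median of all genes was -0.12, and to 14 of 25 (median 0.19) without the rRNA-rich mutant pair, where it was -0.04.

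*grl-31* had no counts in N2 controls and 51 counts over the *sy441* controls, namely 7, 35 and 9. On these pooled counts it was at least 16.04-fold higher, with the same floor of 3 counts. That bound leaves out the spread between libraries, and the gene was not called. Its levels were 0.0844, 0.423 and 0.107 CPM in the mutant controls. In heat-shocked N2 it had 21, 0 and 0 counts.

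After heat shock, 0 members were higher and 2 were lower in the mutants, with backgrounds of 2.32% and 0.379%. These were *grl-5* (log2 fold change -2.24, SE 0.49, edgeR adjusted p = 0.0306) and *ptr-18* (-1.96, SE 0.47, adjusted p = 0.0441). Without the rRNA-rich mutant pair, *grl-5* was at -2.64 (adjusted p = 0.0606), and without the shifted N2 pair *ptr-18* was at -1.88 (adjusted p = 0.0941). Of 12 fits without a library, 4 lost the call of *grl-5* (-2.70 to -1.96) and 6 that of *ptr-18* (-2.85 to -1.74). *ptr-13* came next at 0.95 (SE 0.29, adjusted p = 0.101).

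*ptr-18* (WBGene00004232, chromosome II, 12965546 to 12978171) encodes a patched-related protein that, in larvae, helps to clear the secreted ground-like protein GRL-7. Its CPM values in N2 were 3.91, 5.04 and 4.76 at 20 °C and 21.8, 13.8 and 23.4 after heat shock. In *sy441* they were 7.70, 3.82 and 4.32 at 20 °C and 9.30, 2.07 and 3.805 after heat shock. All heat-shocked N2 libraries were above every other library, while the other 3 groups overlapped.

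In N2, the log2 difference of *ptr-18* after heat shock was 2.11 (SE 0.47, edgeR adjusted p = 0.0544), and in *sy441* it was -0.06 (SE 0.45, adjusted p = 1). The test of the difference between these responses gave -2.17 (SE 0.65, unadjusted p = 0.00514, adjusted p = 1), which did not pass the threshold. The N2 value passed under DESeq2 (2.09, adjusted p = 4.9e-04), RLE factors (2.08, adjusted p = 0.0464) and no filter (2.08, adjusted p = 0.0380). Of 12 fits without a library, only 3 called it (1.85 to 2.31 over all 12). Without the shifted N2 pair no patched-type gene was called in N2. *grl-7* itself had group means of 7.89 ± 3.10 (SD, n = 3) and 10.3 ± 4.5002 CPM in N2 and of 4.55 ± 2.09 and 4.18 ± 3.27 CPM in *sy441*, and was not called in any comparison.

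**Figure D4:**
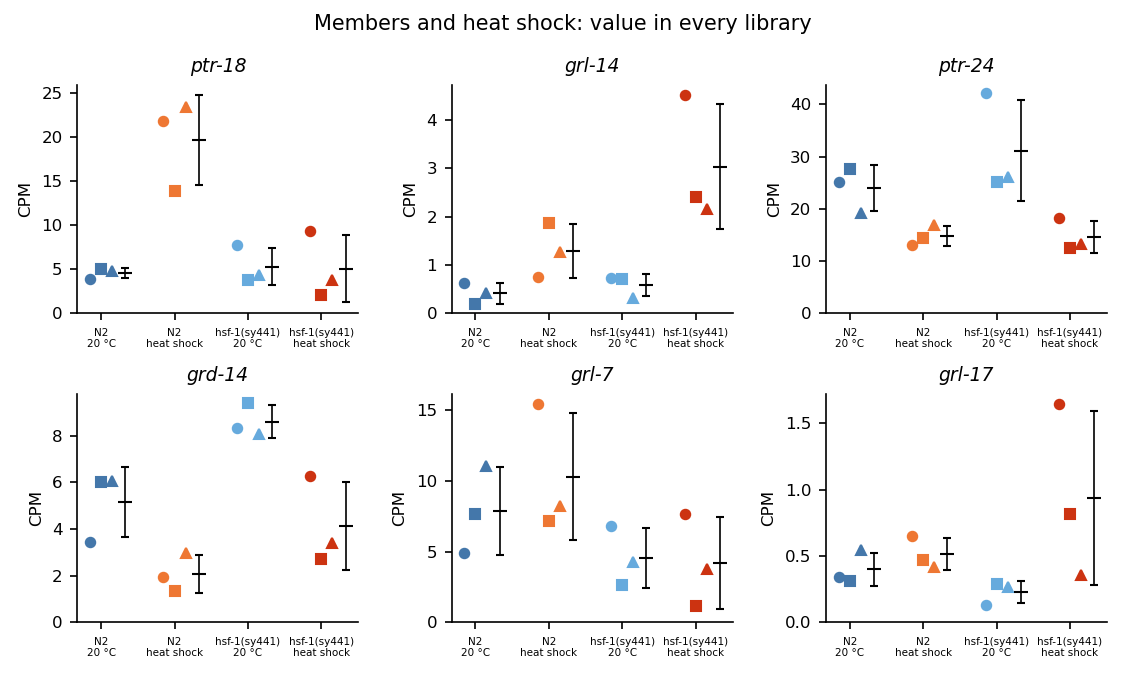
CPM in every library for members set against heat shock. Circles, squares and triangles are replicates 1, 2 and 3, with group means and SD (n = 3) in black. Heat-shocked N2 libraries are highest for *ptr-18* at 13.8 to 23.4, *grl-14* is higher and *ptr-24* lower in every heat-shocked library than in any control, and *grl-7* shows broad overlap.

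The heat response was tested in each genotype. In N2, 0 members were called higher and 0 lower by edgeR, with backgrounds of 0.78% and 0.223%, whereas at an unadjusted p under 0.05 there were 3 higher and 2 lower of 77 (5.34% and 2.55% of all genes), and DESeq2 called 1 in each direction (1.89% and 0.891% of all genes). In *sy441*, edgeR called 0 and 0, with backgrounds of 0.279% and 0.29%, the unadjusted counts were 3 and 5 (2.98% and 3.84% of all genes), and DESeq2 again called 1 in each direction (0.92% and 1.16%). For the interaction 0 and 0 were called, with backgrounds of 0% and 0.0111%, 0 and 1 members were under the unadjusted threshold (0.591% and 1.94% of all genes), and DESeq2 called 0 (0.0192% and 0.139%). By smallest p, *grd-1* (-1.47, SE 0.73) and *wrt-5* (-0.60, SE 0.30) followed *ptr-18* there, both at an adjusted p of 1.

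With both genotypes averaged, 1 member rose and 2 fell after heat shock, with backgrounds of 1.52% and 1.32%. The ground-like gene *grl-14* (WBGene00001723, chromosome V, 20825559 to 20827743) rose. It had 0.621, 0.182 and 0.419 CPM in N2 and 0.723, 0.702 and 0.321 in *sy441* controls, against 0.746, 1.86 and 1.26 in N2 and 4.52, 2.41 and 2.17 in *sy441* after heat shock. Each heat-shocked library was above each control. The log2 fold change was 2.02 (SE 0.39, edgeR adjusted p = 0.0120).

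This call of *grl-14* was lost only on omission of the rRNA-rich mutant pair (1.87, adjusted p = 0.0568). Within N2 the value was 1.66 (SE 0.55, edgeR adjusted p = 0.284) and within *sy441* 2.38 (SE 0.55, adjusted p = 0.0914). The gene overlaps *sbt-1* on the opposite strand by 29 bp, where reads of both genes cannot be told apart.

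*ptr-24* (WBGene00004238, chromosome X, 13338028 to 13348125) fell. It was at 25.2, 27.7 and 19.1 CPM in N2 and 42.3, 25.1 and 26.04 in *sy441* controls, and at 13.04, 14.5 and 16.9 in N2 and 18.2, 12.5 and 13.2 in *sy441* after heat shock. All heat-shocked libraries lay below all controls. Its log2 fold change was -0.90 (SE 0.18, edgeR adjusted p = 0.0160), lost only without N2 heat shock replicate 2 (-0.89, adjusted p = 0.0514).

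*grd-14* also fell, by 1.19 on the log2 scale (SE 0.27, edgeR adjusted p = 0.0317), a call lost without the shifted N2 pair (-1.09, adjusted p = 0.0582) and in 4 of 12 fits without a library (-1.42 to -1.07). For a gap between all controls and all heat-shocked libraries, *grl-14* was the sole member in the higher direction and *ptr-24* in the lower, against 0.786% and 0.914% of all tested genes.

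Same-numbered mutant libraries deviated together. In a fit of the 6 mutant libraries with the replicate number as a block, *grl-14* was at 2.40 (edgeR adjusted p = 0.00607) and *ptr-24* at -1.05 (adjusted p = 0.00616), so 2 members passed in *sy441* in place of 0. That fit called 1.53% of all genes higher and 2.07% lower, where the members had 1 each of 77. Next by p in *sy441* was *grl-17* at 2.03 (SE 0.64, edgeR adjusted p = 0.293), with 0.133 to 0.290 CPM in controls and 1.65, 0.816 and 0.355 after heat shock. In N2, *grd-14* followed *ptr-18* at -1.31 (SE 0.39, adjusted p = 0.191), which DESeq2 called.

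The median log2 fold change of all tested members was 0.16 in N2, -0.03 in *sy441* and 0.08 averaged, against 0.05, -0.0032 and 0.02 for all tested genes, and -0.15 against -0.05 for the interaction. Of the families, 23 of 25 patched-type genes were above 0 after heat shock in N2 (median 0.28), where 55.4% of all tested genes were (median 0.05), and 13 of 25 in *sy441* (median 0.03), where 49.5% of all were. The Hedgehog-related genes were above 0 in 26 of 52 and 24 of 52 cases. None of these genes passed the test. With each library left out, the patched-type count in N2 ran from 15 to 22 of 25. It fell to 15 (median 0.15) without N2 heat shock replicate 3, to 18 (median 0.15) without N2 control replicate 1 and to 19 (median 0.20) without the rRNA-rich mutant pair. The median of all tested genes in these fits was -0.06, 0 and -0.02, in the same order. Mutant libraries enter the N2 comparison only through the filter, scaling and spread of the joint fit. *ptc-1* (0.09, SE 0.31), *ptc-3* (0.28, SE 0.22), *hog-1* (-0.36, SE 0.53) and *qua-1* (0.35, SE 0.39) did not pass in N2.

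**Figure D5:**
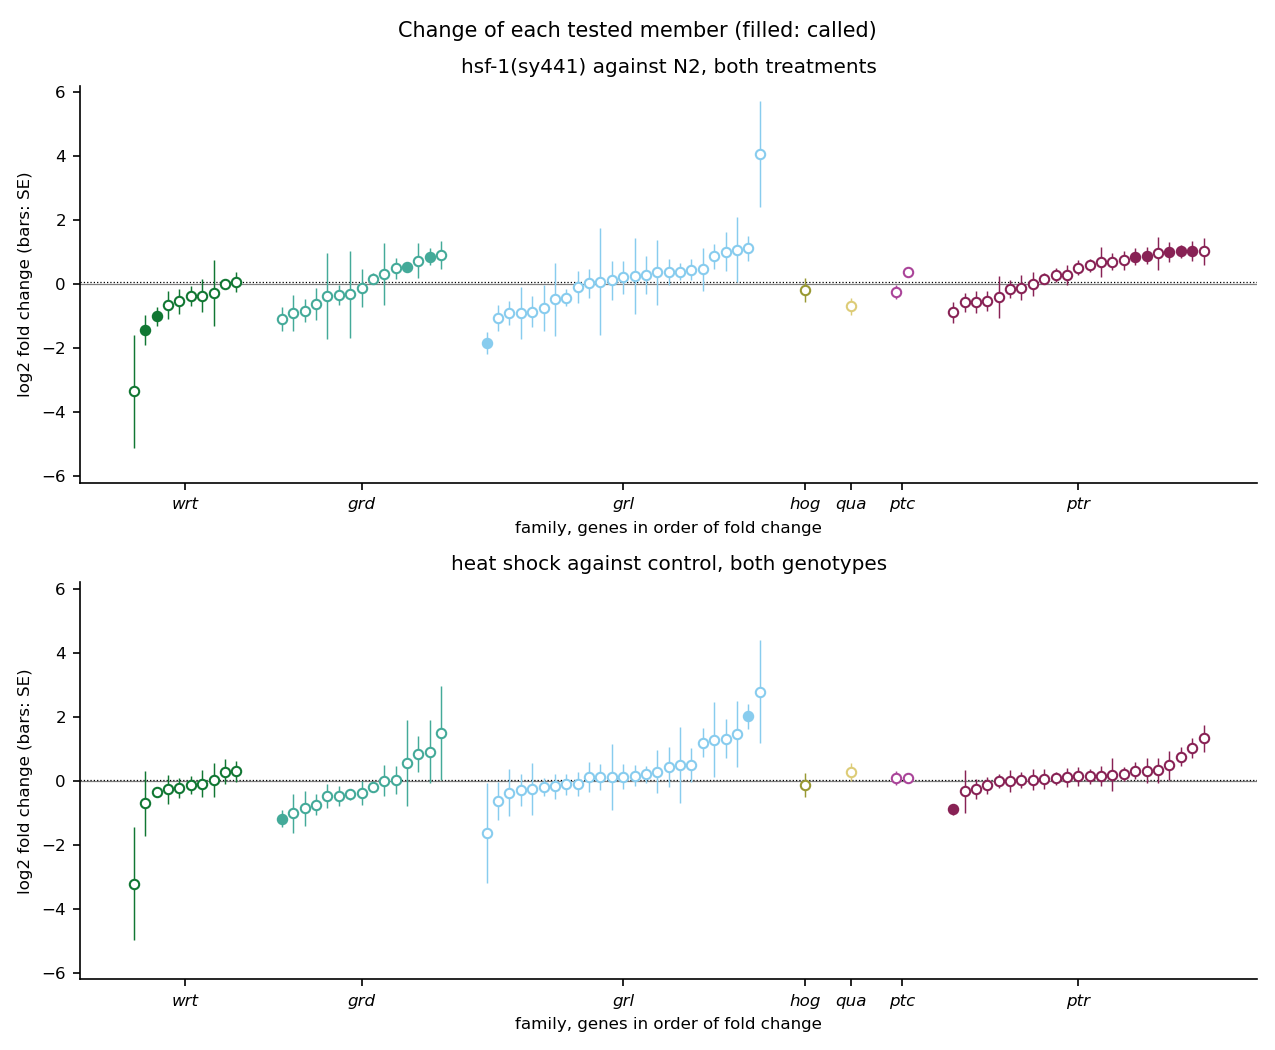
Log2 fold change of every tested member by family, for *hsf-1*(*sy441*) against N2 with both treatments averaged (top) and for heat shock against control with both genotypes averaged (bottom). Bars are standard errors, filled points passed the edgeR test, the grey line is 0 and the dotted line the median of all tested genes. At the top, 5 filled *ptr* genes lie above 0 and *grl-5*, *wrt-1* and *wrt-2* below, and at the bottom *grl-14* lies at 2.02 and *ptr-24* and *grd-14* at -0.90 and -1.19.

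Other genes related to the pathway were read from a list of 12, all tested. In the averaged comparison of genotypes 3 were higher and 1 lower by edgeR, where 15.2% and 5.34% of all genes were, and no gene of the list was called for heat shock or the interaction. *ncr-1* and *ncr-2*, which encode Niemann-Pick C1-like cholesterol transporters with a sterol-sensing domain akin to that of Patched, were higher. *ncr-1* had 5.67, 5.41 and 4.83 CPM in N2 and 23.9, 13.4 and 8.40 in *sy441* controls, and 7.94, 12.2 and 12.7 in N2 and 36.9, 17.2 and 18.2 in *sy441* after heat shock. Mutants were above N2 within each treatment.

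The averaged log2 fold change of *ncr-1* was 1.33 (SE 0.27, edgeR adjusted p = 0.00531), that of *ncr-2* 1.25 (SE 0.27, adjusted p = 0.00721) and that of the megalin gene *lrp-1* 0.54 (SE 0.17, adjusted p = 0.0347). *scp-1*, for a SCAP-like sterol-sensing protein, was lower at -0.86 (SE 0.12, edgeR adjusted p = 5.6e-04). It had 79.6, 74.1 and 70.7 CPM in N2 and 48.9, 48.4 and 46.2 in *sy441* controls, and 99.2, 103 and 122 in N2 and 53.6, 56.0 and 43.5 in *sy441* after heat shock, with no overlap. *ptd-2*, *che-14* and *daf-6*, the nearest relatives of the patched families on the list, and *tra-1*, the Gli-type factor, were not called.

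Genes of molting and of the apical matrix, the processes best known for these families, showed 3 higher and 2 lower of 27 in the averaged comparison, beside 15.2% and 5.34% of all tested genes. *nas-37*, a protease needed to shed the old cuticle, was higher at 1.21 (SE 0.14, edgeR adjusted p = 1.7e-04), as were *mlt-3* and *mlt-4*. The collagen genes *rol-6* and *dpy-5* were lower at -1.93 (SE 0.48) and -1.53 (SE 0.50), with edgeR adjusted p of 0.0141 and 0.0446.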

How the data were processed

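Whole-animal poly-A RNA of 12 samples was sequenced, and the authors aligned reads with HISAT2 to WBcel235, counted them per gene with HTSeq and deposited raw read counts of 46934 genes. Tool versions, annotation release, strand setting and the treatment of multi-mapping reads are not given in the sources used here. Groups were taken from the titles, reading K as control. Genes were kept by filterByExpr (17946), scaled by TMM and fitted together, each group with its mean, by the quasi-likelihood method of edgeR 4.0.16 (R 4.3.3, robust, legacy form), with Benjamini-Hochberg adjusted p under 0.05 over all genes. Contrasts were made for 7 comparisons. CPM are per 1000000 of the TMM-scaled total, and lengths and positions are from Ensembl 115. Fold changes against groups without counts used a floor of 3 counts over the group.

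Alternatives were DESeq2 1.42.0, RLE factors, no filter beyond 1 count in 1 library, the replicate number as a block, and omission of each library. Omission of the shifted N2 pair (control 3, heat shock 1), omission of the rRNA-rich mutant pair (replicate 1 of both treatments), the newer quasi-likelihood form, and the mutant libraries alone with a block were chosen after seeing the data. Every same-numbered correlation was positive only for *sy441* controls with *sy441* heat shock (0.342, 0.336 and 0.199), which is the source of the pairing used there. For heat-shocked N2 with heat-shocked *sy441* the correlations were 0.225, 0.253 and -0.012. For N2 controls with *sy441* controls they were -0.01, 0.158 and 0.199. The fit was tested on simulated data. The members and the 9 gene lists were chosen with earlier results of these data known. Members given with full values are those called in any comparison, the 3 with the smallest p in each, the 3 with the highest level per kb in *wrt*, *grd*, *grl* and *ptr*, and *hog-1*, *qua-1*, *ptc-1* and *ptc-3*. Genes of the lists are those called, up to 4 per list and comparison by adjusted p. No sequences are shown. The survival, microscopy and qPCR data were not analysed here.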

Additional observations from a re-analysis of the deposited data

Results flagged for a closer look

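Of the 77 tested members, *ptr-18* had the smallest p in the test of the difference between the heat responses of the genotypes, and it did not pass the correction over all genes. The response in *sy441* minus that in N2 was -2.17 on the log2 scale (SE 0.65, unadjusted p = 0.00514 by edgeR, adjusted p = 1), and it ran from -2.83 to -1.72 when each library was left out.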

How the results depend on the processing

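At 20 °C, where 1 member was called, DESeq2 called 6, RLE factors 0, no filter 0, omission of the shifted N2 pair called 4, and omission of the rRNA-rich mutant pair called 0 and moved the median log2 fold change to -0.27. After heat shock (2 called) DESeq2 gave 5 and either omission 1. For heat shock in N2 (0 called) DESeq2 gave 2, and RLE factors, no filter, the replicate block, the omission of the mutant pair and the newer fit gave 1 each. For heat shock in *sy441* (0 called) DESeq2, the omission of the N2 pair and the mutant libraries alone with the replicate block gave 2 each and the newer fit 1. The averaged genotype comparison (10 called) gave 18 with DESeq2 and 17 with the omission of the N2 pair, 7 with no filter and with the omission of the mutant pair, and 12 with the block, and averaged heat shock (3 called) gave 5 with DESeq2 and 2 with either omission. The interaction gave 0 throughout. Where the share of all genes under a setting was taken, it stands with the comparison above. For the other settings it was not taken, so a larger or smaller count there may only follow the calls over all genes.

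With each library left out, the counts ran from 0 to 2 at 20 °C, 0 to 2 after heat shock, 0 to 1 for heat shock in N2, 0 to 0 in *sy441* and for the interaction, 3 to 11 for the averaged genotype comparison and 1 to 4 for averaged heat shock. The median log2 fold changes ran from -0.36 to 0.46, -0.33 to 0.12, -0.08 to 0.51, -0.28 to 0.15, -0.47 to 0.13, -0.25 to 0.34 and -0.14 to 0.23 in the same order. The fewest averaged genotype calls, 3, came without N2 heat shock replicate 2. The share of all genes called was not taken for the fits without a library, so these counts cannot be set against it.

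The replicate number as a block was also fitted to all 12 libraries. Between N2 controls and N2 heat shock the numbers did not pair the libraries (correlations -0.363, 0.218 and -0.316). Between the genotypes the same-numbered correlations were mixed in sign, so that fit is given as an alternative. Most members are at low counts, where an absent call says little.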
